A study of Mus musculus with 6 samples.

Results

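Isl1 and 8 genes of the LIM domain network around it were followed in sorted cells of the mouse embryo, with and without stabilised β-catenin. The 9 genes are the LIM-homeodomain factors Isl1, Isl2, Lhx1 and Lhx2, the LIM domain binding proteins Ldb1 and Ldb2, and the LIM-only proteins Lmo1, Lmo2 and Lmo4. They were taken by name, and each is read by every probe set whose annotation names that gene alone, which gave 13 of the 34945 single-gene probe sets and 9 of the 18193 genes on the array. The series holds 6 arrays of total RNA from YFP+ cells of the Isl1-cre domain at E9.0, 3 from wild-type and 3 from mutant embryos, with 1 array per sample. The mutant embryos carried Isl1-cre, Rosa-YFP and a Beta-catenin allele with loxP sites around exon 3, whose recombination leaves a stable protein. The wild-type cells were sorted by the same reporter without the stabilised protein, and their full genotype is not spelled out in the labels. Cre acts here under the control of Isl1, so the sort itself rests on the history of Isl1 expression, and the labels do not say whether the cre allele alters the Isl1 locus. Nor do they say how many embryos went into a sample, and the p-values reflect only how far these samples differ from each other, which may be technical.

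LIM-homeodomain factors bind DNA through a homeodomain and other proteins through zinc-binding LIM domains. LDB proteins dimerise and hold LIM domains, so that they bridge factors into larger complexes. LIM-only proteins have LIM domains and no homeodomain, and can compete with LIM-homeodomain factors for the same LDB protein. Isl1 marks progenitors of the second heart field, which build the outflow tract and right ventricle, and it is also used by motor neurons, sensory ganglia and foregut endoderm. The series' title places Isl1 in a pathway with Notch1 and β-catenin, and the question put to these genes is how they stood in mutant against wild-type cells.

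To show what lies next to the genes that the results turn on, 250 bases before the annotated gene start were read from RefSeq (GRCm38), which held such windows for 7 of the 9 members. Ldb2 and Lmo2 are not among them. Each window was searched on both strands for TCF/LEF words, the sequence read by the DNA-binding partners of β-catenin (CTTTGNN, with A or T at each N), for LIM-homeodomain words (TAATTA and TAATTG), for GATAA, and for CCAAT. The Isl1 window, shown because Isl1 has the most negative difference of the members, is at chr13:116309689-116309938 on the minus strand. The Lmo1 window, shown because it alone among the members' 13 windows has a TCF/LEF word, is at chr7:109175208-109175457 on the minus strand, before the more upstream of the annotated Lmo1 starts. Capitals mark the words found.
Isl1: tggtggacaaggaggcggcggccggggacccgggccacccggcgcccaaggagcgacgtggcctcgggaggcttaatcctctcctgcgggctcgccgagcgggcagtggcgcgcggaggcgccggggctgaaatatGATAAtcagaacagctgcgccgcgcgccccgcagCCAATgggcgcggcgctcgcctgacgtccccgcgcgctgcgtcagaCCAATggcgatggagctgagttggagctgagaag
Lmo1: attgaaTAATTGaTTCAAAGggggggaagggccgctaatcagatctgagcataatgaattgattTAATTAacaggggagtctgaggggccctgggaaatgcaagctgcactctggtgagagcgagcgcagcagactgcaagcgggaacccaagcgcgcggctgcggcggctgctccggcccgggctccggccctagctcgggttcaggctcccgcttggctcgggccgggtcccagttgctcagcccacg
The Isl1 window has 1 GATAA word, 114 bases before the start, and CCAAT words 80 and 34 bases before it, and none of the TCF/LEF or LIM-homeodomain words. The Lmo1 window has TAATTG at 244 bases before the start, the reverse complement of CTTTGAA at 237 bases and TAATTA at 186 bases, which reads the same on both strands. None of these words overlaps another. Among all 32851 RefSeq windows of this length, 14.8% hold a TCF/LEF word, 11.3% a LIM-homeodomain word, 22.6% GATAA and 33.8% CCAAT. These matches describe letters in a short window and are not binding sites.

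The values are log2 signals, so that a difference of 1 is a doubling. They are compared with a rough background level of 4.85, set by probe sets for bacterial genes that the sample should not hold. The series as a whole sets some limits. Array medians lay between 6.47 and 6.5, and arrays correlated across genes at 0.979 to 0.989. The Y-linked genes were uneven, with a mean of 9.08 on wild-type array 1, 3.33 and 3.43 on wild-type arrays 2 and 3, and 8.09 to 9.12 in the mutant samples. Y-linked signal was thus largely confounded with group, and any adjustment for it rests mainly on wild-type array 1. Xist read 12.13 and 12.44 on mutant arrays 1 and 3, which also had Y-linked signal. Of 8 markers of second heart field and cardiac progenitors listed for this check, 7 lay above background, while Nkx2-5 averaged 4.82 in wild-type and 4.36 in mutant cells. Markers of other cells were also present, with Hbb-bh1, an embryonic globin, at 13.53 to 13.94 on the 6 arrays, Tubb3, a neuronal tubulin, at 9.82 to 11.62, and Epcam, an epithelial surface protein, at 10.28 to 11.34. In bulk RNA, fewer cells of a type and less RNA per cell cannot be told apart.

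With limma and Benjamini-Hochberg adjustment over all 18193 genes at 0.05, 0 of the 9 members passed. Among all genes 12 passed (0.066%), all of them higher in the mutant. At an unadjusted p under 0.05 there were 2 members, beside 11.6% of all genes: Ldb2 was higher, as were 6.76% of genes, and Isl1 lower, as were 4.84%. The values of the mutant and wild-type arrays did not overlap for 3 members, beside 17.8% of all genes: Ldb2 was higher without overlap, as were 8.64% of genes, and Isl1 and Lhx2 lower, as were 9.18%. Fitted over all probe sets, 0 of the 13 passed, beside 0.0229% of all. The differences had a median of −0.04 over the members and −0.03 over all genes, and their sizes a median of 0.34 and 0.16.

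**Figure D1:**
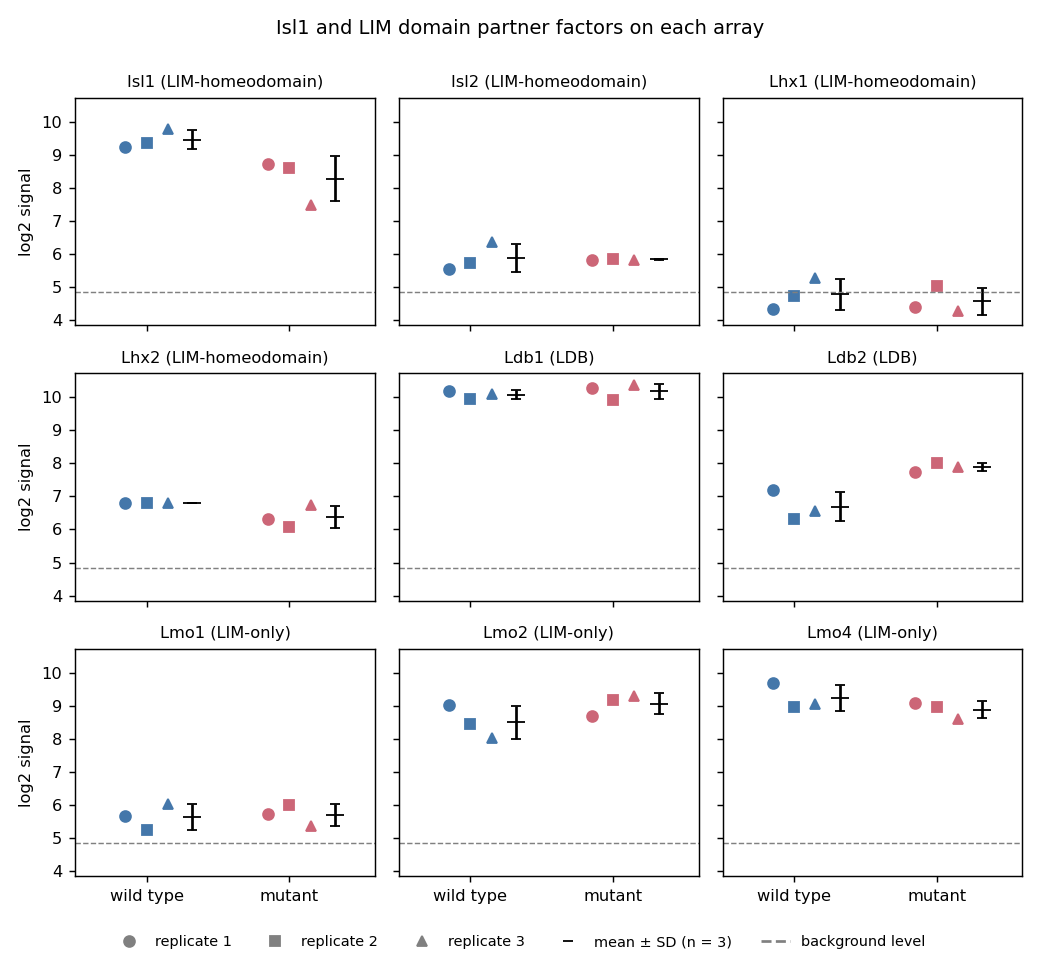
Log2 signal (vertical axis) of each of the 9 members on the 3 wild-type (blue) and 3 mutant (red) arrays, with the symbol giving the replicate, the black mark the mean ± SD (n = 3) and the dashed line the background level of 4.85. The groups are apart for Isl1, Ldb2 and, narrowly, Lhx2, and overlap for the other 6 genes.

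Isl1 stood lower in the mutant cells. It read 9.24, 9.36 and 9.77 in wild-type samples 1, 2 and 3, and 8.72, 8.61 and 7.49 in mutant samples 1, 2 and 3. The highest mutant array was 0.52 below the lowest wild-type array, and mutant array 3 was more than 1 log2 unit below the other mutant arrays. The means were 9.46 ± 0.28 and 8.27 ± 0.68 (SD, n = 3), a difference of −1.18 (SE 0.33, 95% interval −1.95 to −0.42), which is 2.27-fold. It did not pass (adjusted p = 0.269, limma), and 2.92% of genes had a smaller p. A further Isl1 probe set, designed from the same accession and so not an independent reading, gave 9.22, 9.24 and 9.57 against 8.67, 8.26 and 7.48, a difference of −1.21 (SE 0.29, adjusted p = 0.249 over all probe sets). Its mutant arrays had the same order as in the first, with array 1 highest and array 3 lowest. Without mutant array 3 the Isl1 difference was −0.79 (adjusted p = 0.410 over all genes), and over all 15 alternatives tried for the gene it lay between −1.41 and −0.79. Markers of second heart field and cardiac progenitors, 8 in all, averaged 7.10 to 7.39 in wild-type and 6.98 to 7.18 in mutant samples, and 9 neuronal markers 7.92 to 8.69 and 7.13 to 8.50. Of the 9 neuronal markers, 8 had lower mutant means, as had 10057 of all 18193 genes, and 2 were lower with no overlap, beside 9.18% of all genes. What share either cell type has in the Isl1 difference was not tested.

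Isl2, the close relative of Isl1 used by motor neurons, had nearly the same mean in both groups. It read 5.54, 5.73 and 6.35 in the wild-type samples and 5.81, 5.86 and 5.83 in the mutant samples. All mutant values lay inside the wild-type range, with a difference of −0.04 (95% interval −0.53 to 0.45, adjusted p = 0.954, limma). The difference between the responses of Isl1 and Isl2 was not tested. Wild-type array 3 had the highest value for Isl1, Isl2, Lhx1 and Lmo1 alike.

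Lhx2, a LIM-homeodomain factor of pharyngeal muscle progenitors and of forebrain, read 6.79 on each of the 3 wild-type arrays and 6.33, 6.06 and 6.74 in the mutant samples. Mutant array 3 was thus within 0.05 of wild type, while array 2 was 0.74 below the wild-type mean. The difference was −0.42 (SE 0.18, 95% interval −0.84 to 0.01) and did not pass (adjusted p = 0.439, limma). It was −0.26 without mutant array 2 and −0.60 without mutant array 3. The closeness of the wild-type values was not seen in the brightest probe sets of the other members, whose wild-type SD was 0.13 to 0.50. A further Ldb2 probe set had a wild-type SD of 0.032. Mutant array 3, the array with the least Isl1, had the most Lhx2 of the mutant arrays. Pharyngeal mesoderm markers, 5 measured and all above background, averaged 7.32 to 7.90 in wild-type and 7.41 to 7.72 in mutant samples.

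Lhx1, a LIM-homeodomain factor of intermediate mesoderm and head organiser tissue, was not measured above background on most arrays. It read 4.35, 4.73 and 5.27 in wild-type and 4.39, 5.04 and 4.27 in mutant cells, with 2 of 6 arrays above 4.85. Its dimmer probe set had 0 of 6 above it. The difference of −0.22 (95% interval −0.88 to 0.45, adjusted p = 0.790, limma) therefore describes signal near background. Other intermediate mesoderm markers, 3 measured, averaged 5.73 to 6.46 and 6.12 to 6.5. These means join opposite directions, with Osr1 at −1.05, Wt1 at 0.76 and Pax8 at 0.63, each with groups that overlapped.

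**Figure D2:**
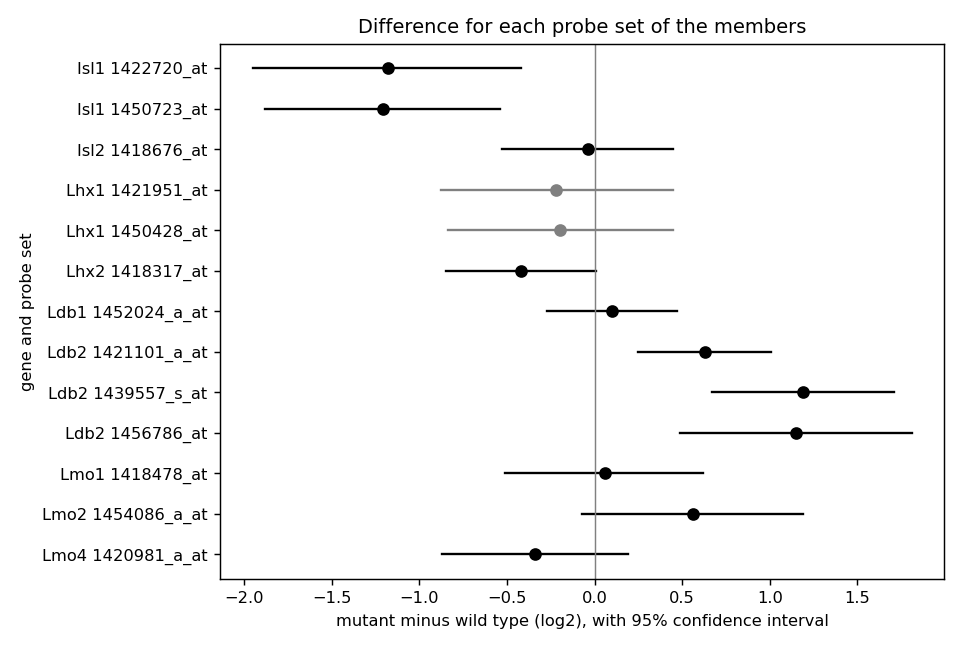
Mutant minus wild-type difference on the log2 scale (horizontal axis) for each of the 13 probe sets of the members (vertical axis), with the unadjusted 95% confidence interval from limma as a line; Lhx1, near background, is in grey. The intervals of the 2 Isl1 probe sets lie below 0 and those of the 3 Ldb2 probe sets above 0, though none passed after adjustment over all probe sets.

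Ldb2, an LDB protein with a restricted expression pattern that includes endothelium, stood higher in the mutant. It read 7.18, 6.33 and 6.55 in the wild-type samples and 7.75, 8.0 and 7.88 in the mutant samples. All mutant arrays were above all wild-type arrays, and wild-type array 1 was the nearest to them. The difference was 1.19 (SE 0.22, 95% interval 0.67 to 1.71), or 2.28-fold, with the smallest p of the 9 members. It did not pass over all genes (adjusted p = 0.156, limma), and 0.56% of genes had a smaller p. This probe set was picked for the highest mean over all 6 arrays, mutant arrays included. In wild type it averaged 6.68, below the 6.84 of another Ldb2 probe set, and in mutant cells 7.87 against 7.47. The pick thus rested on the mutant values, which favours a larger difference and a smaller p.

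The other Ldb2 probe sets stood the same way. One read 6.83, 6.87 and 6.81 in wild-type and 7.57, 7.17 and 7.68 in mutant cells, a difference of 0.63 (SE 0.16, adjusted p = 0.265 over all probe sets). The dimmest read 5.76, 5.21 and 5.53 against 6.97, 6.02 and 6.97, a difference of 1.15 (SE 0.28, adjusted p = 0.252). All 3 were above background on all 6 arrays and separated the groups, while their differences spanned 0.63 to 1.19. The brightest carries the suffix that the array's maker gives to probe sets matching several transcripts, and the mean of the 3 gave a difference of 0.99 (adjusted p = 0.137).

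Endothelial markers stood higher in the same samples. All 7 markers in the list had higher mutant values, as had 8136 of all 18193 genes. Of the 7, 4 were higher with no overlap (8.64% of all genes were higher so), and none was at or below background. None passed, and 4 were higher at an unadjusted p under 0.05 (6.76% of all genes, limma). Their mean level was 7.45 to 8.15 in the wild-type samples and 8.24 to 8.56 in the mutant samples. Pecam1, an endothelial adhesion protein, read 6.87, 7.33 and 6.18 against 7.83, 8.21 and 7.74. Tek, an angiopoietin receptor, stood at 0.05 and Emcn, a sialomucin of endothelium, at 0.14. Neural crest markers stood higher too, 3 of 4 in mean and 2 of 4 with no overlap, beside the same 8.64%. At an unadjusted p under 0.05, 3 of the 4 were higher, beside 6.76% of all genes (limma). Their median difference was 0.76, and that of the endothelial markers 0.60. The parts of endothelial and neural crest RNA in the Ldb2 difference were not tested. With the Y-linked mean as a covariate, the Ldb2 difference was 0.76 (adjusted p = 0.389, limma). That fit sets the mutant arrays mainly against wild-type array 1, so it cannot separate sex from group.

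Ldb1, the broadly expressed LDB protein, had close means in the 2 groups. It read 10.19, 9.94 and 10.10 in wild-type and 10.27, 9.92 and 10.35 in mutant cells. The lowest and the highest of the 6 values both came from mutant arrays. The difference was 0.10 (SE 0.16, 95% interval −0.26 to 0.47, adjusted p = 0.820, limma), an interval that leaves room for a change of up to 0.47 on the log2 scale.

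Lmo2, the LIM-only protein of blood and endothelial progenitors, read 9.01, 8.46 and 8.02 in the wild-type samples and 8.70, 9.16 and 9.30 in the mutant samples. The groups overlapped, since wild-type array 1 was above mutant array 1. The difference was 0.56 (SE 0.27, 95% interval −0.07 to 1.19) and did not pass (adjusted p = 0.475, limma). It was 0.82 without wild-type array 1, 0.32 without wild-type array 3, and 0.11 (adjusted p = 0.928) with the Y-linked mean as a covariate.

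Lmo4, a LIM-only protein found in many epithelia and in neural crest, read 9.67, 8.96 and 9.05 in wild-type and 9.09, 8.96 and 8.59 in mutant cells. Wild-type array 1 was the highest, and the other arrays of wild type overlapped the mutant arrays. The difference was −0.34 (SE 0.23, 95% interval −0.87 to 0.18, adjusted p = 0.581). Without wild-type array 1 it was −0.12, and with the Y-linked covariate −0.71.

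Lmo1, a LIM-only protein of the nervous system, read 5.67, 5.23 and 6.02 against 5.72, 6.0 and 5.36. The groups overlapped fully, with a difference of 0.06 (95% interval −0.51 to 0.62, adjusted p = 0.941, limma). Its window is the one with the TCF/LEF word shown above.

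**Figure D3:**
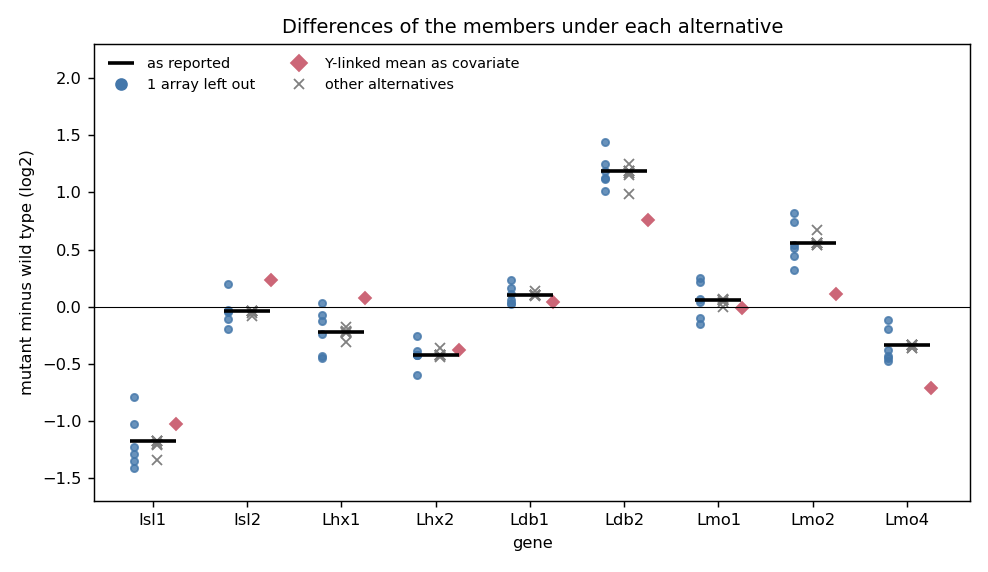
Mutant minus wild-type difference on the log2 scale (vertical axis) of each member as reported (black bar), with 1 array left out (blue), with the Y-linked mean as a covariate (red) and under the other alternatives (grey crosses). Isl1 and Lhx2 stayed below 0 and Ldb2 above 0 throughout, Lmo2 ran from 0.11 to 0.82, and Isl2, Lhx1 and Lmo1 lay on both sides of 0.

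Genes that work with the members were read from 5 lists, and 0 of the 41 genes measured passed over all genes (limma). Earlier results of these data were known when the lists were chosen, so counts within them describe and do not test. Of 9 other LIM-homeodomain and LIM-only factors, 7 had lower and 2 higher mutant values, with a median of −0.22 beside −0.03 over all genes. An unadjusted p under 0.05 was seen for 0, beside 11.6% of all genes (limma). All 9 had groups that overlapped, as had 14952 of all 18193 genes. Those with the smallest p were Lhx5, a forebrain factor, at −0.40 (SE 0.18), Lhx3, a motor neuron and pituitary factor, at −0.22 (SE 0.13; its probe sets ran from −0.85 to −0.22), and Lmx1b, a limb and midbrain factor, at 0.27 (SE 0.17). Neuronal markers were uneven on the same arrays: the mean of 9 was 8.25, 7.92 and 8.69 in the wild-type samples and 8.50, 7.13 and 7.47 in the mutant samples. Of these 9, 8 lay above background. Mutant means were lower for 8, as for 10057 of all 18193 genes, and higher for Pou4f1 (0.72). Neurod4 at −1.74 (probe sets from −1.74 to −0.19) and Elavl3 at −1.37 (−1.37 to −0.08) were lower with no overlap, beside 9.18% of all genes. Mnx1, which defines motor neurons, lay below background in both groups. The part of neuronal cells in the values of LIM-homeodomain genes was not tested.

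The cofactors of LDB proteins had the smallest median size of difference of the 5 lists, 0.10 beside 0.16 over all genes. The single-stranded DNA binding proteins Ssbp2, Ssbp3 and Ssbp4, which stabilise LDB complexes, stood at 0.22 (SE 0.15), −0.08 (SE 0.12) and −0.04 (SE 0.12), and Rlim, the ubiquitin ligase that marks LDB for destruction, at 0.13 (SE 0.16). None had an unadjusted p under 0.05, beside 11.6% of all genes (limma). All 4 had groups that overlapped, as had 14952 of all 18193 genes, so these counts do not set the list apart.

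Of 9 partners of Lmo2 in blood and endothelial complexes, 6 had lower and 3 higher values, with a median of −0.26 beside −0.03 over all genes. At an unadjusted p under 0.05 there were 2, both lower, beside 4.84% of all genes, and groups did not overlap for 1 higher and 1 lower, beside 17.8% of all genes. Cbfa2t3, a corepressor of the Tal1 complex, read 8.68, 8.31 and 7.88 in the wild-type samples and 6.99, 6.97 and 7.50 in the mutant samples. The groups did not overlap, and the difference was −1.14 (SE 0.24, adjusted p = 0.191, limma), while its 4 probe sets ran from −1.14 to −0.25. Tal1, the basic helix-loop-helix factor that Lmo2 joins to Ldb1 in red cell precursors, stood at −0.94 (SE 0.35), with wild-type array 3 below mutant array 3. Tcf4, an E protein, stood at 0.24 (SE 0.12), with the groups apart, and its 6 probe sets ran from −0.06 to 0.24. Thus Lmo2 itself had a higher mean in mutant cells while Tal1 and Cbfa2t3 had lower means. Primitive erythroid markers averaged 10.97 to 11.43 in the wild-type samples and 10.82, 10.40 and 11.56 in the mutant samples, with 6 of 6 above background. All 6 had lower mutant means, as had 10057 of all 18193 genes, and the groups of all 6 overlapped, as did those of 14952 genes. Klf1, an erythroid transcription factor, stood at −1.02 and Epor, the erythropoietin receptor, at −0.49. The remaining markers moved less, with Hbb-bh1 at −0.21, Hba-x at −0.16, Hbb-y at −0.11 and Alas2 at −0.01. Their part in these values was not tested.

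Of 4 measured proteins that bind Lmo4, 2 had higher values with no overlap, as had 8.64% of all genes, and 2 had groups that overlapped. Deaf1, a transcription factor that Lmo4 binds, read 8.46, 8.36 and 8.34 against 8.85, 8.95 and 8.78, a difference of 0.47 (SE 0.12, adjusted p = 0.235, limma). Snai2, a zinc finger repressor of neural crest and mesenchyme, stood at 1.14 (SE 0.30, adjusted p = 0.241; probe sets from 0.68 to 1.14). Brca1, a DNA repair protein, stood at −0.14 (SE 0.13), with probe sets on both sides of 0 (−0.43 to 0.16). Neural crest markers averaged 7.09 to 7.67 in the wild-type samples and 7.54 to 8.21 in the mutant samples, with 3 of 4 higher and 4 of 4 above background, and their part in the Snai2 value was not tested.

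Of 15 genes known to act with or below Isl1 in heart and pharynx, 8 had lower and 7 higher values, with a median of −0.29, beside −0.03 over all genes. An unadjusted p under 0.05 was seen for 6, all lower, beside 4.84% of all genes (limma). Groups did not overlap for 5, all lower, beside 9.18% of all genes that were lower without overlap, and Nkx2-5 among the 5 lay at background. The list was chosen with earlier results of these data known, so these counts cannot test whether such genes moved as a set. Smyd1, a muscle histone methyltransferase, read 8.02, 8.33 and 8.50 in the wild-type samples and 6.76, 6.68 and 7.21 in the mutant samples. Shh, a ligand made in foregut endoderm, read 8.73, 8.66 and 8.39 against 7.70, 7.33 and 6.98. Myocd, which coactivates genes of heart and smooth muscle, read 8.28, 7.79 and 7.51 against 6.18, 6.71 and 6.49. These 3 had the smallest p of the list and did not pass (adjusted p = 0.0881 to 0.131, limma). Their lowest mutant arrays differed: array 2 for Smyd1, array 3 for Shh, as for Isl1, and array 1 for Myocd. Their probe sets disagreed. Those of Smyd1 lay on both sides of 0 (−1.40 to 0.03), and those of Myocd (−1.40 to −0.19) and Shh (−1.26 to −0.17) differed in size. Cardiomyocyte markers, 6 measured, averaged 9.95 to 10.57 in wild-type and 9.61 to 10.06 in mutant samples, and 6 endoderm markers 7.87 to 8.07 and 7.68 to 8.03. Their part in these values was not tested. Mef2c and Fgf10, second heart field genes known to need Isl1, stood at 0.03 (SE 0.18) and 0.01 (SE 0.16). Other genes of the list moved more. Tbx20 stood at −0.94 (SE 0.22), with no overlap and probe sets from −1.56 to −0.70. Gata4 at −0.87 (SE 0.40) and Bmp4 at 0.84 (SE 0.41) had groups that overlapped.

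**Figure D4:**
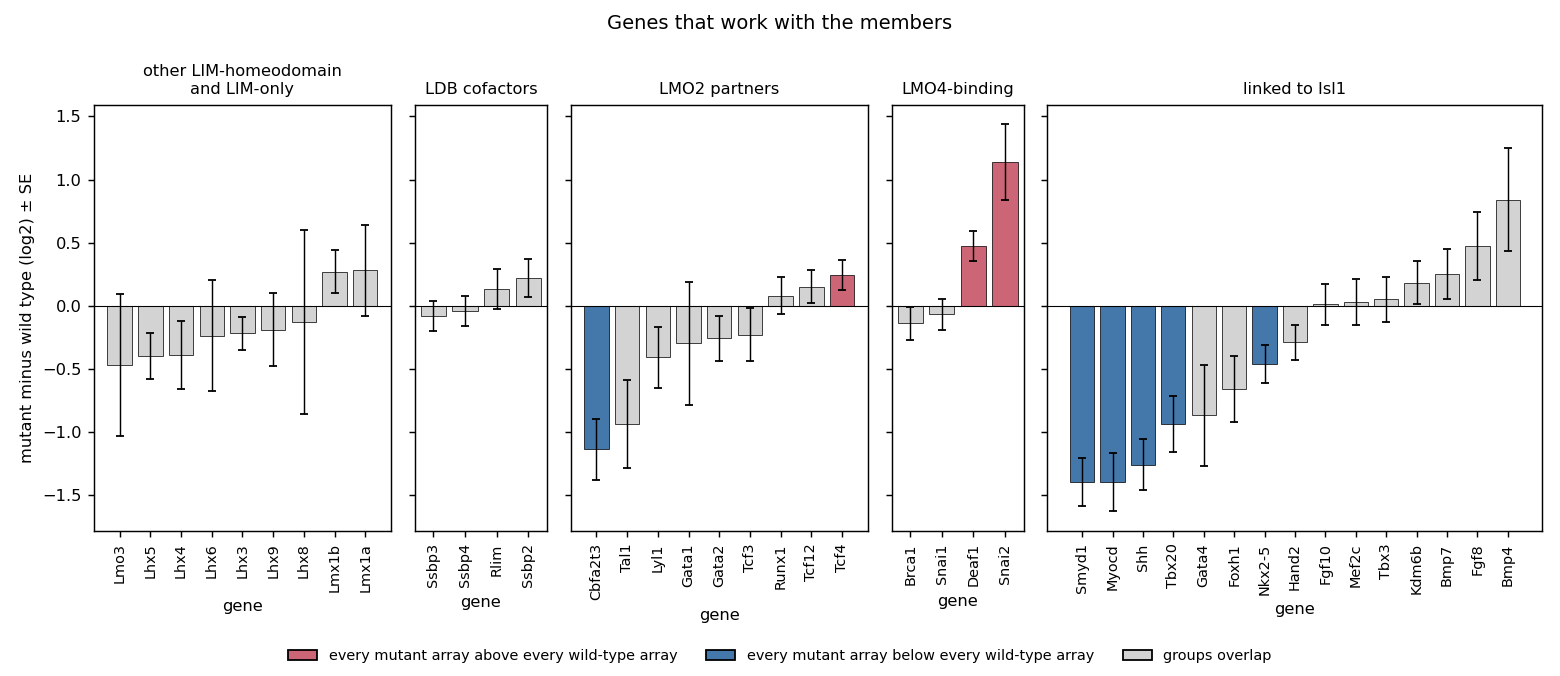
Mutant minus wild-type difference on the log2 scale ± SE (vertical axis) of the 41 measured genes in 5 lists that work with the members, sorted within each list; red and blue bars mark genes whose groups do not overlap. The bars without overlap point down for 5 of 15 genes linked to Isl1, and the 4 LDB cofactors lie between −0.08 and 0.22.

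Genes with the profile most like that of Isl1 were found by the root mean square difference over the 6 arrays, after each gene was centred on its own mean, among 14125 other genes above background. Isl1 itself varied by 0.73 about its mean on this scale. The nearest were Chrna3, a neuronal nicotinic receptor subunit, at 0.179, Sox3, a neural progenitor factor, at 0.255, the LIM domain kinase Limk1 at 0.266, Cxxc4 at 0.270, Zfp536 at 0.271 and Pmm2 at 0.281. Zfp536 was above background by its mean only, and its mutant array 3 value of 3.93 lay below the level of 4.85. Chrna3 read 7.71, 8.04 and 8.25 in the wild-type samples and 7.14, 7.02 and 6.40 in the mutant samples. It shared with Isl1 both the order of the wild-type arrays and the low value of mutant array 3. That likeness follows from how Chrna3 was picked and is no separate result. Its 3 probe sets ran from −1.14 to −0.56. Likeness was measured on the brightest probe set of each gene, and the others could differ: differences ran from −0.91 to −0.27 for Sox3, −0.72 to −0.09 for Limk1, −0.89 to −0.23 for Cxxc4, −0.82 to −0.60 for Zfp536 and −0.98 to −0.00 for Pmm2. The same search for Ldb2, made after its values were seen, gave Wnt1 at 0.139, Renbp at 0.162, Tmlhe and Timp3 at 0.175, Hecw2 at 0.197 and Dkk1, a secreted Wnt antagonist, at 0.203, where Ldb2 itself varied by 0.65. Probe sets of Tmlhe ran from 0.13 to 1.03, of Timp3 from 0.54 to 1.01, of Hecw2 from 0.82 to 0.96 and of Dkk1 from 1.31 to 1.75. None of these 12 genes passed over all genes (adjusted p = 0.0881 to 0.508, limma).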

How the data were processed

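Total RNA of 6 samples was measured on Affymetrix arrays. Per the labels' protocols, RNA was extracted with Trizol, amplified with WT-Ovation Pico and labelled with biotin. The deposited values are log2 signals per probe set. The values span 1.89 to 15.07, which is where their scale was read from. How the authors corrected, summarised and aligned the arrays is not given in the sources used here, and sorted values were nearly alike (largest SD at a rank 0.07), so a shift shared by most genes may have been removed before deposit. No further scaling was applied. The number of arrays limits the precision.

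Of 45101 probe sets, 34945 name 1 gene in GEO's platform annotation, 932 name several, 9160 are unnamed here and 64 are controls. Symbols were updated by gene identifier through a RefSeq table of GRCm38, which matched 34741. A gene was read by its probe set with the highest mean over all 6 arrays, called the brightest here. The background level was taken as the 95th percentile over the mean signals of 27 control probe sets for bacterial genes, and no dim gene was removed.

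Mutant and wild-type samples were compared two-sided with lmFit and eBayes of limma 3.58.1 (R 4.3.3). Group was the sole term, which left 4 residual degrees of freedom, to which the prior added 3.45. P-values were adjusted by Benjamini-Hochberg over 18193 genes, or over 34945 probe sets where stated. Intervals are 95% and unadjusted. The fit was tested on simulated data with independent normal noise, so that test does not cover differences shared by many genes on an array. Named were all members, the 3 genes of each list with the smallest p, and the 6 genes nearest to Isl1. Mef2c, Fgf10, Tbx20, Gata4, Bmp4, Nkx2-5, Ssbp4, single markers and the genes nearest to Ldb2 were named after their values were seen. Counts and means over a list cover its measured genes, and some listed genes are not reported here. The lists and members were chosen with earlier results of these data known.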

Additional observations from a re-analysis of the deposited data

How the results depend on the processing

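No member passed under any of the 15 alternatives (limma), which were 2 other scalings, a filter on dim genes, 2 other choices of probe set, a trended robust prior, array weights, the replicate block, the mean of 3 measured Y-linked genes as a covariate, and leaving out each array. The direction held throughout for Isl1, Lhx2, Ldb1, Ldb2, Lmo2 and Lmo4. With the Y-linked covariate Isl2 was 0.23, Lhx1 0.08 in both the gene and its brighter probe set, and Lmo1 −0.01. With 1 array left out, differences ran from −0.20 to 0.20 for Isl2, −0.45 to 0.03 for Lhx1 (−0.41 to 0.12 for its dimmer probe set) and −0.15 to 0.25 for Lmo1. The filter removed Isl2, Lhx1 and Lmo1, so it gave no value for them. The number of genes called higher over all genes was 12, and 6 with each array centred on its median, 1 with the most variable probe set, 1 with the mean of all probe sets, and 1 with the Y-linked covariate; the cause was not tested. Leaving out 1 array gave 0 to 81 genes higher and 0 to 11 lower. With the replicate block 0 genes were called. The labels state no pairing of same-numbered arrays. Deviations of same-numbered arrays correlated at 0.108, −0.075 and −0.016, and wild-type array 2 correlated best with mutant array 3 (0.154). With so few arrays these correlations cannot show whether the arrays were paired. With the block the adjusted p was 0.345 for Isl1 and 0.237 for Ldb2.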
